A study of Danio rerio with 8 samples.

Results

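Vision begins in the outer segments of rods and cones, and the genes that carry out its chemistry, apart from the opsins, were followed in single zebrafish larvae. The set comprised 48 named genes for phototransduction, outer segment structure, retinoid handling and photoreceptor transcription. They were chosen by gene symbol, from knowledge of the pathway and with earlier results of these data known. A row with the same symbol was found for 47 of them among the 35197 rows of the deposited table, and 46 were abundant enough to test. cnga1, the cyclic nucleotide-gated channel subunit of rods, had no row under that symbol, and guca1a, a calcium sensor, was present at 0.113 to 0.642 CPM (scaled counts, as a rate per library) and fell below the filter.

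The 8 libraries were each made from 1 whole Danio rerio larva, collected 6 days post fertilization. Of these larvae 4 were wild-type and the other 4, described as siblings of these, carried osgep G177A/G177A. The homozygotes are zygotic, so products laid down by their mothers were not removed by design. The product of osgep is the enzyme of KEOPS, a complex that places a threonylcarbamoyl group on adenosine in transfer RNA. Tissue is given as whole embryo, and no group of eyes or sorted cells was measured. The comparison asks how RNA levels differ between homozygotes and wild-type siblings. Larvae are numbered below by the replicate number in their labels.

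In a photoreceptor, light-activated opsin turns on transducin, a G protein of alpha, beta and gamma subunits. Transducin releases the phosphodiesterase PDE6, which breaks down cyclic GMP, and cyclic nucleotide-gated channels close. Recovery needs G protein-coupled receptor kinases, arrestins, the RGS9 accelerator of the transducin GTPase, and guanylate cyclases held in check by calcium sensors. Rods and cones use separate sets of most of these proteins, and vision in the zebrafish larva is carried mainly by cones.

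Library totals ranged from 14398812 to 19052599 estimated counts. Scaling factors, which adjust for library composition (TMM), split within the groups. Wild-type 1 stood at 1.07 against 0.732 to 0.9 in the other wild-type larvae, and homozygote 2 stood at 0.951 against 1.19 to 1.23 in the other homozygotes. Results are therefore also given without those larvae. osgep itself was at 5.55 to 11.5 CPM in wild-type larvae and 1.64 to 3.68 CPM in homozygotes, with no overlap. Counts were not divided by transcript length, so a CPM value is compared between larvae for 1 gene and not between genes.

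Of the 46 tested genes, 4 fell in homozygotes, 0 rose and 42 did not pass (edgeR's quasi-likelihood test, Benjamini-Hochberg adjusted p below 0.05 over all 21447 tested rows). The 4 were gngt2a, a cone transducin gamma subunit gene, prph2b, for an outer segment disc rim protein, rlbp1b, for a retinal-binding protein of the retinoid cycle, and crx, for the homeodomain factor of photoreceptor genes. Among all tested rows 0.769% were called lower and 0.284% higher (1.05% in either direction), and of these genes 8.7% were called lower. Homozygotes lay below wild-type larvae without overlap in 6 genes (13% of 46, against 4.95% of all rows), and above them in 3 (6.52%, against 5.5%). At an unadjusted p under 0.05, 12 of the 46 genes were lower and 3 of the 46 higher, where the shares of all rows were 12.4% and 9.84%. DESeq2 called 8 of the 46 lower and 3 of the 46 higher, where its shares of all rows were 5.3% and 2.75%. Because the genes were chosen with earlier results of these data known, these shares do not measure an enrichment.

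The median log2 fold change of the 46 was -0.28, and 31 lay below 0 and 15 above. Over all tested rows the median was 0.02, and 48.2% lay below 0. With libraries scaled by their totals alone the median of all rows moved to 0.40 and that of the 46 turned to 0.11, with 17 below 0, so each direction given here is relative to the bulk of genes. Set against the median of all rows, the 46 stood at -0.30 with TMM scaling and at -0.29 with totals alone. With either scaling 34 of the 46 lay below that median. A change of scaling moves all rows by nearly the same amount, so this agreement was fixed in advance and is not support. With 1 surrogate variable in the fit the 46 stood at -0.27 against the median of all rows, and 31 of the 46 lay below it. In whole larvae, fewer cells that express these genes and less RNA per cell cannot be told apart.

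The counts depended on which larvae were included. Without wild-type 2 or without wild-type 3 the number of genes called lower was 0, without homozygote 1, 3 or 4 it was 1, without wild-type 4 it was 3, without homozygote 2 it was 8 and without wild-type 1 it was 9. The share of all rows called lower moved in step. It was 0.146% to 0.351% in the 5 fits with 0 or 1 of these genes called, 1.19% without wild-type 4, 3.46% without homozygote 2 and 5.77% without wild-type 1. In either direction, 5.31% of all rows were called without homozygote 2 and 9.76% without wild-type 1. A pass in these 2 fits, given below for single genes, came with this wider rise and is not separate support for the gene. Without wild-type 1 and homozygote 2 together, 11 of the 46 were called lower and 3 of the 46 higher. The shares of all rows were then 10.5% lower and 7.86% higher. The 4 genes named above were among the 11. With libraries scaled by totals alone 0 genes were called, and with 1 surrogate variable in the fit 1 was called, gngt2a. Of all rows, 0.574% (0.163% lower) and 0.919% (0.751% lower) were called in these 2 fits.

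**Figure D1:**
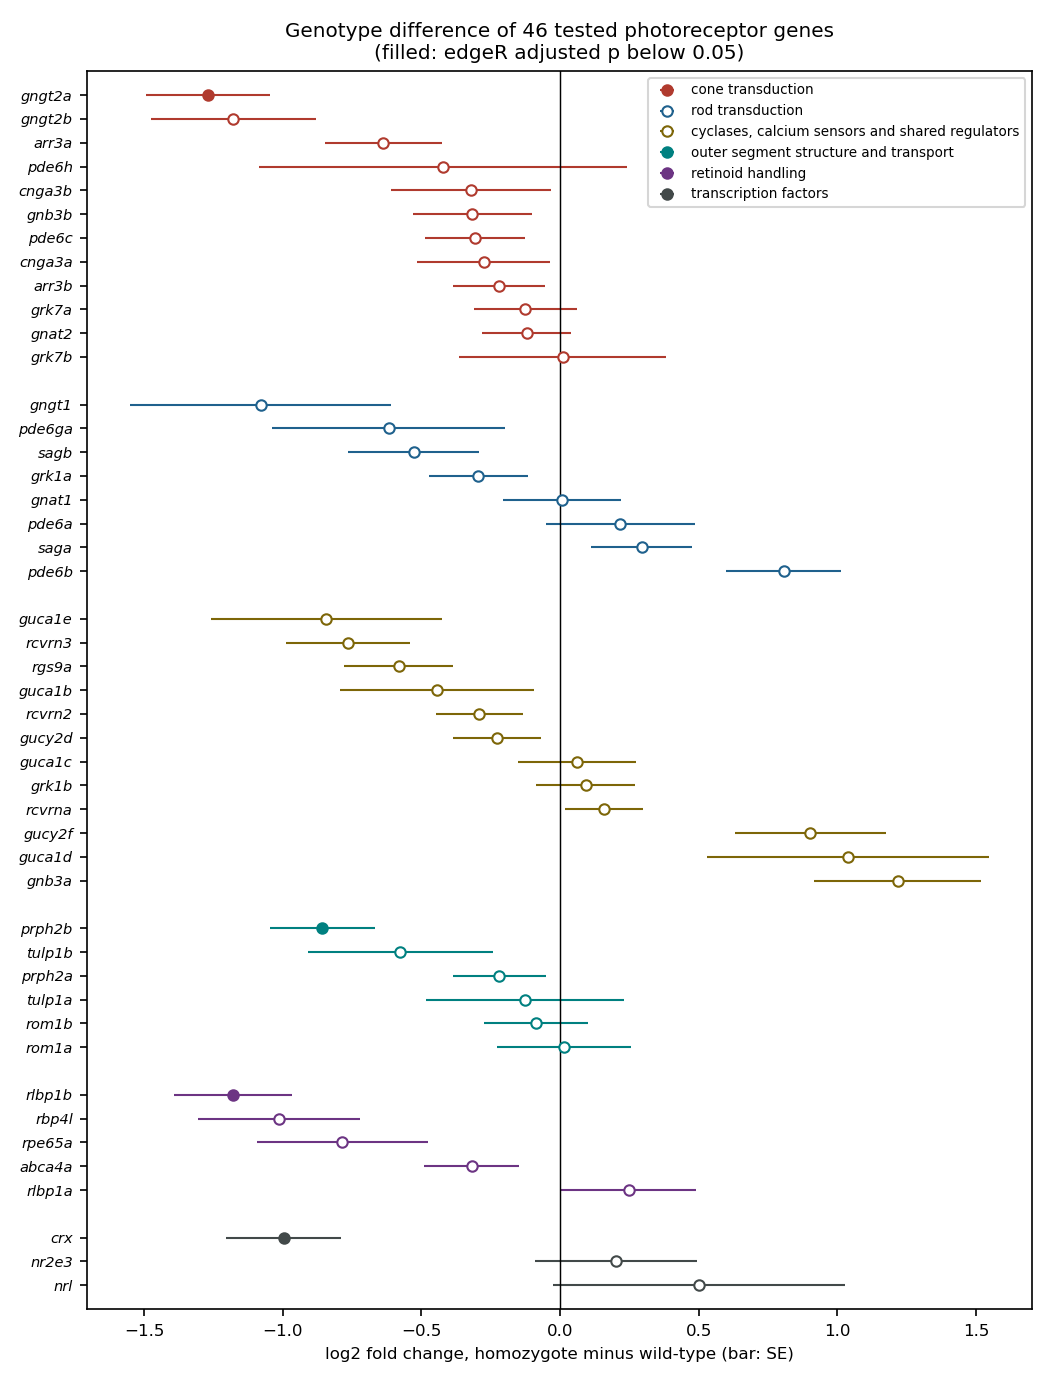
Log2 fold change of each of the 46 tested genes (horizontal axis, homozygote minus wild-type, TMM scaling) with its standard error, grouped and coloured by role. Filled points are the 4 genes called by edgeR, and 11 of the 12 cone transduction genes lie left of 0, whereas the 12 genes for cyclases, calcium sensors and shared regulators are split 6 and 6; with library totals alone 4 of the 12 cone genes lie below 0.

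Among the 12 genes of cone transduction, 1 fell, 0 rose and 11 did not pass, where 0.769% of all rows were called lower. Their median log2 fold change was -0.31, with 11 below 0. With TMM factors 12 of 12 lay below the median of all rows, and a change to library totals could hardly alter that count. With 1 surrogate variable it was 10 of 12. With totals alone 4 of the 12 lay below 0. The transducin gamma subunit genes stood furthest from 0. gngt2a was at 13.9, 15.6, 18.7 and 15.9 CPM in the wild-type larvae (numbers 1 to 4) and at 8.04, 8.05, 4 and 6.55 CPM in the homozygotes, in the same order. Each homozygote was below each wild-type larva. The means were 16 ± 1.98 and 6.66 ± 1.91 CPM (SD, n = 4 each), a 2.41-fold lower level (log2 fold change -1.27, SE 0.22, adjusted p = 0.0187 by edgeR).

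The gngt2a call ended on leaving out wild-type 2 (edgeR adjusted p = 0.0569), wild-type 3 (0.0855) or homozygote 4 (0.0514), and with library totals alone (0.0624). Over all alternatives its log2 fold change ranged from -1.42 to -0.89. Its paralog gngt2b, the other cone gamma subunit gene, was at 334, 517, 598 and 603 CPM in wild-type larvae and 199, 380.4, 149 and 178 CPM in homozygotes. The groups overlapped because homozygote 2 stood above wild-type 1. Its log2 fold change was -1.18 (SE 0.30), and it did not pass (adjusted p = 0.0674 by edgeR). It passed without homozygote 2 (0.0151), without wild-type 1 (0.0248) and by DESeq2 (0.00315). In the other direction, its edgeR adjusted p rose to 0.158 without wild-type 2 and to 0.205 without wild-type 3.

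The alpha and beta subunit genes of cone transducin had smaller values. gnat2, the cone alpha subunit gene, had a log2 fold change of -0.12 (SE 0.16), and gnb3b, for a beta subunit, of -0.32 (SE 0.22). The values turned to 0.27 and 0.03 with library totals alone. The catalytic subunit gene pde6c of the cone phosphodiesterase stood at -0.31 (SE 0.18), and the channel subunit genes cnga3a and cnga3b at -0.28 (SE 0.24) and -0.32 (SE 0.29). Each of these 3 lay above 0 with library totals alone, at 0.10, 0.13 and 0.09. Of the cone arrestins, which bind phosphorylated opsin, arr3a had -0.64 (SE 0.21, edgeR adjusted p = 0.118) and arr3b -0.22 (SE 0.17). The cone opsin kinase genes grk7a and grk7b stood at -0.13 (SE 0.19) and 0.01 (SE 0.37).

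The inhibitory subunit of the cone phosphodiesterase was divided between rows. pde6h, which had no gene identifier in the table, held fractional counts in 8 of 8 libraries. Added to pde6ha, the row of a gene outside the set, they gave whole numbers, within 0.011, in 8 of 8. Reads were thus shared between the rows, and the value of pde6h alone, a log2 fold change of -0.42 (SE 0.66), is uncertain. Summed after the data were seen, both rows came to 472, 750.1, 690.3 and 655 CPM in wild-type larvae and 249, 471, 323 and 278 CPM in homozygotes. Homozygote 2 lay just under wild-type 1. The sum had a log2 fold change of -0.96 (SE 0.24) and did not pass (adjusted p = 0.0664 by edgeR). Most of the sum was pde6ha, at 434, 735, 676 and 604 CPM in wild-type larvae and 228, 432, 299.6 and 273 CPM in homozygotes. That row alone stood at -0.99 (SE 0.24) and did not pass either (adjusted p = 0.0623 by edgeR). The sum is therefore mainly a reading of pde6ha and not of pde6h.

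**Figure D2:**
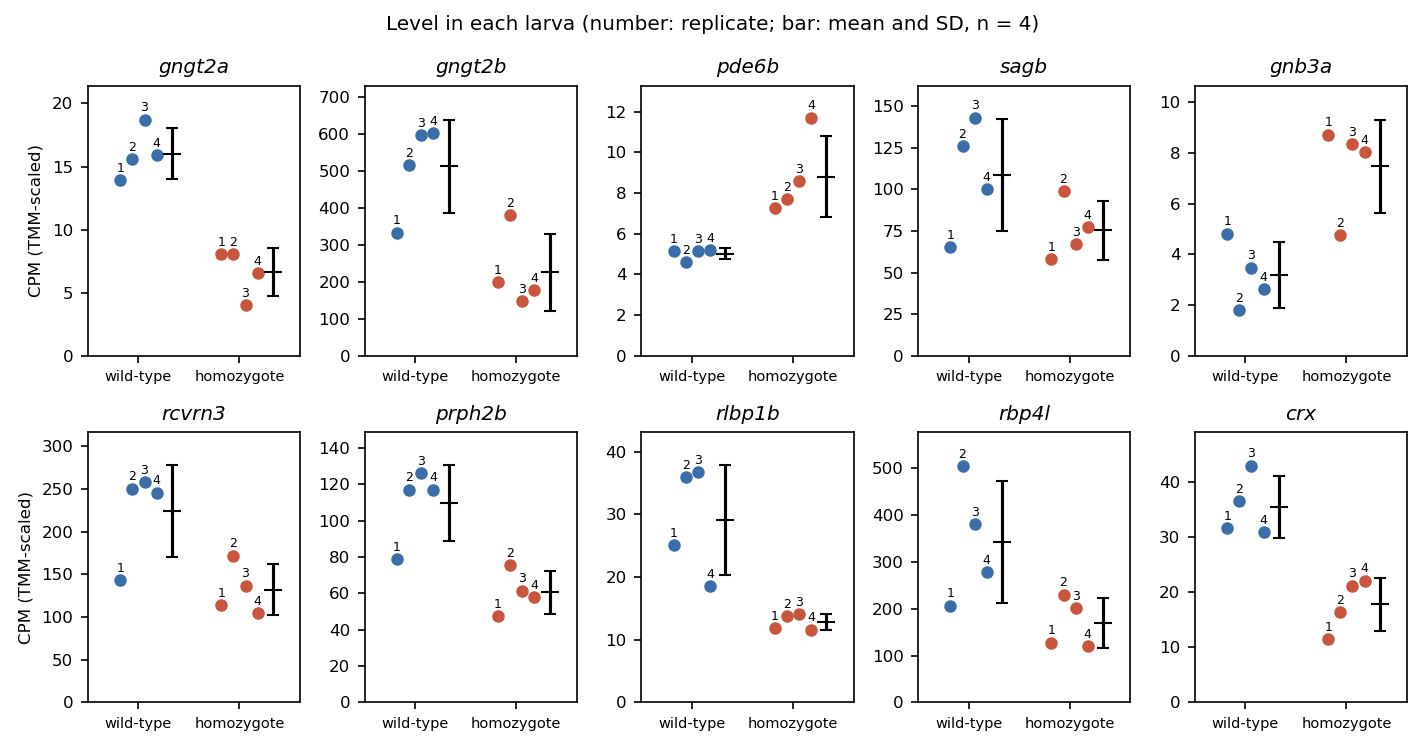
CPM (vertical axes, linear and starting at 0) of 10 genes in each larva, with the replicate number beside each point and the mean and SD of 4 larvae as a bar. gngt2a, prph2b, rlbp1b and crx do not overlap between groups, all homozygotes exceed all wild-type larvae in pde6b, and in gngt2b, sagb, rcvrn3, rbp4l and gnb3a the groups overlap.

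Rod transduction genes showed 0 calls among the 8 tested, and 4 lay below 0 and 4 above (3 and 5 with library totals alone). By unadjusted p under 0.05, 2 of the 8 were lower and 1 of the 8 was higher, where the shares of all rows were 12.4% and 9.84%. pde6b, a catalytic subunit gene of the rod phosphodiesterase, had the smallest p of the group. It was at 5.16, 4.6, 5.16 and 5.2 CPM in wild-type larvae and at 7.25, 7.71, 8.57 and 11.7 CPM in homozygotes. Each homozygote was above each wild-type larva, and the wild-type values lay close together. With 8 larvae its log2 fold change of 0.81 (SE 0.21) did not pass (edgeR adjusted p = 0.0688). It passed without wild-type 1 (0.0383), without homozygote 2 (0.0451) and by DESeq2 (0.0129). Against that, the edgeR adjusted p of pde6b rose to 0.197 without wild-type 3 and to 0.222 with 1 surrogate variable. The other catalytic subunit gene, pde6a, stood at 0.22 (SE 0.27).

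sagb, a rod arrestin gene, was at 65.2, 126, 143 and 100.2 CPM in wild-type larvae and 58.1, 98.7, 66.9 and 77.4 CPM in homozygotes. The groups overlapped widely. Its log2 fold change was -0.53 (SE 0.24, edgeR adjusted p = 0.21), and that of its paralog saga was 0.29 (SE 0.18). gnat1, the rod transducin alpha subunit gene, stood at 0.01 (SE 0.21). gngt1, the rod gamma subunit gene, stood at -1.08, with a large standard error of 0.47 and wild-type values between 20.1 and 52.5 CPM against 7.32 to 30.9 CPM in homozygotes. pde6ga, an inhibitory subunit gene, and grk1a, a rod opsin kinase gene, stood at -0.62 (SE 0.42) and -0.30 (SE 0.18). Of the rows whose symbols extend cnga1, cnga1b had a log2 fold change of -0.32 (SE 0.27) and cnga1a of 0.54 (SE 0.49).

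The guanylate cyclases, which make cyclic GMP, were grouped with calcium sensors and with regulators shared by rods and cones. This group gave 0 calls among 12 tested genes and a median log2 fold change of -0.08, or 0.28 with library totals alone. gnb3a, a transducin beta subunit paralog, had the smallest p. It was at 4.82, 1.81, 3.48 and 2.63 CPM in wild-type larvae and 8.72, 4.76, 8.35 and 8.04 CPM in homozygotes. The groups met at homozygote 2 and wild-type 1, and the other 3 homozygotes were above all wild-type larvae. Its log2 fold change of 1.22 (SE 0.30) did not pass (adjusted p = 0.0628 by edgeR). It passed without wild-type 1 (0.0182), without homozygote 2 (0.0328), with no filter on low counts (0.0491) and by DESeq2 (0.00752). Leaving out homozygote 3 or wild-type 3 raised its edgeR adjusted p to 0.164 and 0.184.

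rcvrn3 encodes a recoverin-like calcium sensor. The wild-type larvae held 143, 250.4, 258 and 246 CPM and the homozygotes 114, 172, 137 and 105 CPM. Wild-type 1 stood well below its group and inside the range of the homozygotes. It did not pass at -0.76 on the log2 scale (SE 0.22, edgeR adjusted p = 0.0879). It passed without wild-type 1 (0.0196), without homozygote 2 (0.0441) and by DESeq2 (0.0196). Without wild-type 3 the edgeR adjusted p of rcvrn3 was 0.257, and with 1 surrogate variable 0.298. The other recoverin genes stood nearer 0, rcvrn2 at -0.29 (SE 0.16) and rcvrna at 0.16 (SE 0.14). rcvrna had no overlap between groups, although its range was only 19.5 to 24.9 CPM over the 8 larvae.

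Of the cyclases, gucy2f was at 3.48, 1.48, 2.55 and 2.98 CPM in wild-type larvae and 5.72, 4.19, 5.15 and 4.72 CPM in homozygotes. Each homozygote was above each wild-type larva, with a log2 fold change of 0.90 (SE 0.27, edgeR adjusted p = 0.0987). gucy2d stood at -0.23 (SE 0.16). The guanylate cyclase-activating protein genes lay on both sides, guca1b at -0.44 (SE 0.35), guca1c at 0.06 (SE 0.21), guca1d at 1.04 (SE 0.51) and guca1e at -0.84 (SE 0.42), and guca1b, guca1d and guca1e were no higher than 3.62 CPM in any larva. rgs9a, for the accelerator of the transducin GTPase, ranged from 10.9 to 16.8 CPM in wild-type larvae and from 7.48 to 10.5 CPM in homozygotes, without overlap, and did not pass (log2 fold change -0.58, SE 0.20, adjusted p = 0.121 by edgeR). The opsin kinase gene grk1b stood at 0.09 (SE 0.18).

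Outer segment genes gave 1 fall, 0 rises and 5 that did not pass among 6 tested, where 0.769% of all rows were called lower. Their median log2 fold change was -0.17 (0.19 with library totals alone). prph2b encodes a peripherin, a tetraspanin that shapes the rims of outer segment discs. It was at 78.8, 117, 126 and 117 CPM in wild-type larvae and 47.4, 75.5, 61.4 and 57.7 CPM in homozygotes. The highest homozygote, number 2, lay just under the lowest wild-type larva, number 1. The means were 109.6 ± 21 and 60.5 ± 11.6 CPM (SD, n = 4 each), a 1.81-fold lower level (log2 fold change -0.86, SE 0.19, adjusted p = 0.0489 by edgeR).

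The prph2b call was at the edge of the threshold and ended on leaving out wild-type 2 (edgeR adjusted p = 0.126), wild-type 3 (0.169), wild-type 4 (0.0842), homozygote 1 (0.134), homozygote 3 (0.127) or homozygote 4 (0.113). It was also lost with library totals alone (0.0862), with 1 surrogate variable (0.128), without the robust option (0.0573) and by limma voom (0.0687). Its paralog prph2a had a log2 fold change of -0.22 (SE 0.17), which turned to 0.12 with library totals alone. rom1a and rom1b, which encode partners of peripherin, stood at 0.02 (SE 0.24) and -0.09 (SE 0.19). tulp1a and tulp1b, for tubby-like proteins of outer segment transport, stood at -0.13 (SE 0.36) and -0.58 (SE 0.33).

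Retinoid genes, which supply the chromophore to opsin, gave 1 fall, 0 rises and 4 that did not pass among 5. The share of all rows called lower was 0.769%. The median log2 fold change of the 5 was -0.79 (-0.30 with library totals alone). rlbp1b and rlbp1a encode cellular retinaldehyde-binding proteins, found in the retinal pigment epithelium and Müller glia rather than in photoreceptors. rlbp1b was at 25.1, 35.9, 36.7 and 18.6 CPM in wild-type larvae and 11.8, 13.8, 14.1 and 11.6 CPM in homozygotes. Homozygotes lay close together and below each wild-type larva. The means were 29.1 ± 8.76 and 12.8 ± 1.28 CPM (SD, n = 4 each), 2.26-fold lower (log2 fold change -1.18, SE 0.21, adjusted p = 0.0208 by edgeR).

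The rlbp1b call ended on leaving out wild-type 2 (edgeR adjusted p = 0.0737), wild-type 3 (0.0915), homozygote 1 (0.0729), homozygote 3 (0.0515) or homozygote 4 (0.0566), with library totals alone (0.0684) and with 1 surrogate variable (0.0617). rlbp1a stood at 0.25 (SE 0.24). rbp4l, a retinol-binding protein gene, was at 207, 505, 380.4 and 279 CPM in wild-type larvae and 128, 230.4, 201 and 120.1 CPM in homozygotes. Only homozygote 2 exceeded the lowest wild-type larva. Its log2 fold change of -1.01 (SE 0.29) did not pass (adjusted p = 0.087 by edgeR). rbp4l passed without wild-type 1 (0.0251), without homozygote 2 (0.0497) and by DESeq2 (0.0128). Its edgeR adjusted p rose to 0.241 without wild-type 3 and to 0.338 with 1 surrogate variable.

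rpe65a encodes the retinoid isomerase of the pigment epithelium. It ranged from 33.3 to 89.3 CPM in wild-type larvae and from 21.4 to 42.4 CPM in homozygotes, with overlap, and had a log2 fold change of -0.79 (SE 0.31, edgeR adjusted p = 0.171). abca4a, for a retinoid transporter of outer segments, was at 8.7 to 9.03 CPM in wild-type larvae and 6.55 to 7.81 CPM in homozygotes, without overlap, at -0.32 (SE 0.17, edgeR adjusted p = 0.285). Genes of the pigment epithelium and other pigment cells were 0 of 13 called, with a median log2 fold change of -0.64 (-0.24 with library totals alone). At an unadjusted p under 0.05, 8 of the 13 were lower, where the share of all rows was 12.4%. Their summed level was 195 to 290.2 CPM in wild-type larvae and 134 to 175 CPM in homozygotes, and no marker of the list was at 0. Of the 13, 12 lay below 0, but the size differed: pmela, tyrp1a and rgrb stood at -0.96, -1.105 and -0.76. stra6 and rgra both stood at -0.03, and best1, at no more than 1.07 CPM, at 0.35. The list joins pigment epithelium and other pigment cells, so the summed level does not part them, and its source was not tested. The 9 Müller glia genes had 0 calls and a median of -0.24 (0.20 with library totals alone). They were measured in whole larvae, so the list is not a reading of Müller glia alone. The part of either list in the retinoid result was not tested.

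Of the 3 transcription factor genes 1 fell, where 0.769% of all rows were called lower. crx, which encodes the cone-rod homeobox factor, was at 31.6, 36.6, 43 and 30.9 CPM in wild-type larvae and 11.5, 16.4, 21.2 and 22.1 CPM in homozygotes. The groups were separated by a gap of which wild-type 4 and homozygote 4 were the edges. The means were 35.5 ± 5.58 and 17.8 ± 4.88 CPM (SD, n = 4 each), 1.99-fold lower (log2 fold change -1.0, SE 0.21, adjusted p = 0.0392 by edgeR). Leaving out wild-type 2 ended the crx call (edgeR adjusted p = 0.11), as did leaving out wild-type 3 (0.153), homozygote 1 (0.0905) or homozygote 3 (0.0598). It also ended with library totals alone (0.113), by limma voom (0.0561) and with 1 surrogate variable (0.0547). nrl and nr2e3, which in mammals direct rod identity, stood at 0.50 (SE 0.53) and 0.20 (SE 0.29), and nr2e3 was at no more than 2.53 CPM in any larva.

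**Figure D3:**
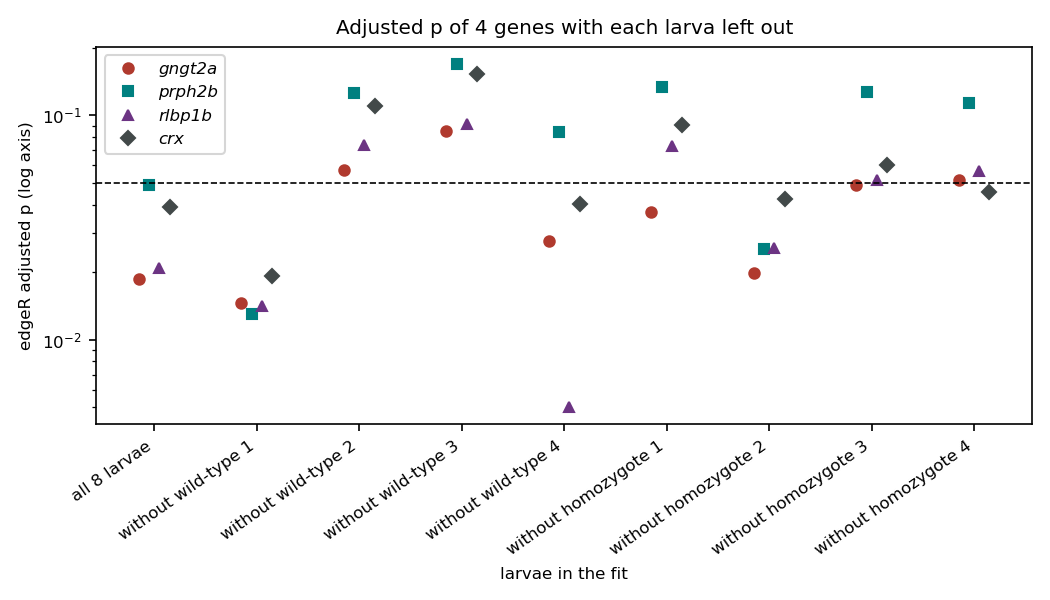
edgeR adjusted p (vertical log axis) of the 4 called genes with all 8 larvae and with each larva left out in turn (horizontal axis), and the threshold of 0.05 as a dashed line. Without wild-type 1 or homozygote 2 the 4 genes stay under the line, and without wild-type 3 they lie between 0.0855 and 0.169.

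Larvae of a genotype differed among themselves. Relative to the wild-type mean of each gene, the median of the 46 was -0.08, 0.06, 0.15 and -0.04 on the log2 scale for wild-type numbers 1 to 4. For homozygotes in the same order the medians were -0.38, -0.09, -0.29 and -0.25. Homozygote 2 lay just under wild-type 1, and the other homozygotes further down. For the 12 cone genes the medians were -0.18, 0.11, 0.05 and -0.02 in wild-type larvae and -0.36, -0.24, -0.28 and -0.51 in homozygotes. They did not overlap, but homozygote 2 lay close under wild-type 1. The pooled SD of the larva medians over the 46 genes was 0.113. For the 8 rod genes they were 0, -0.27, 0.23 and 0.17 against -0.33, 0.23, -0.29 and -0.11, and the groups overlapped.

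**Figure D4:**
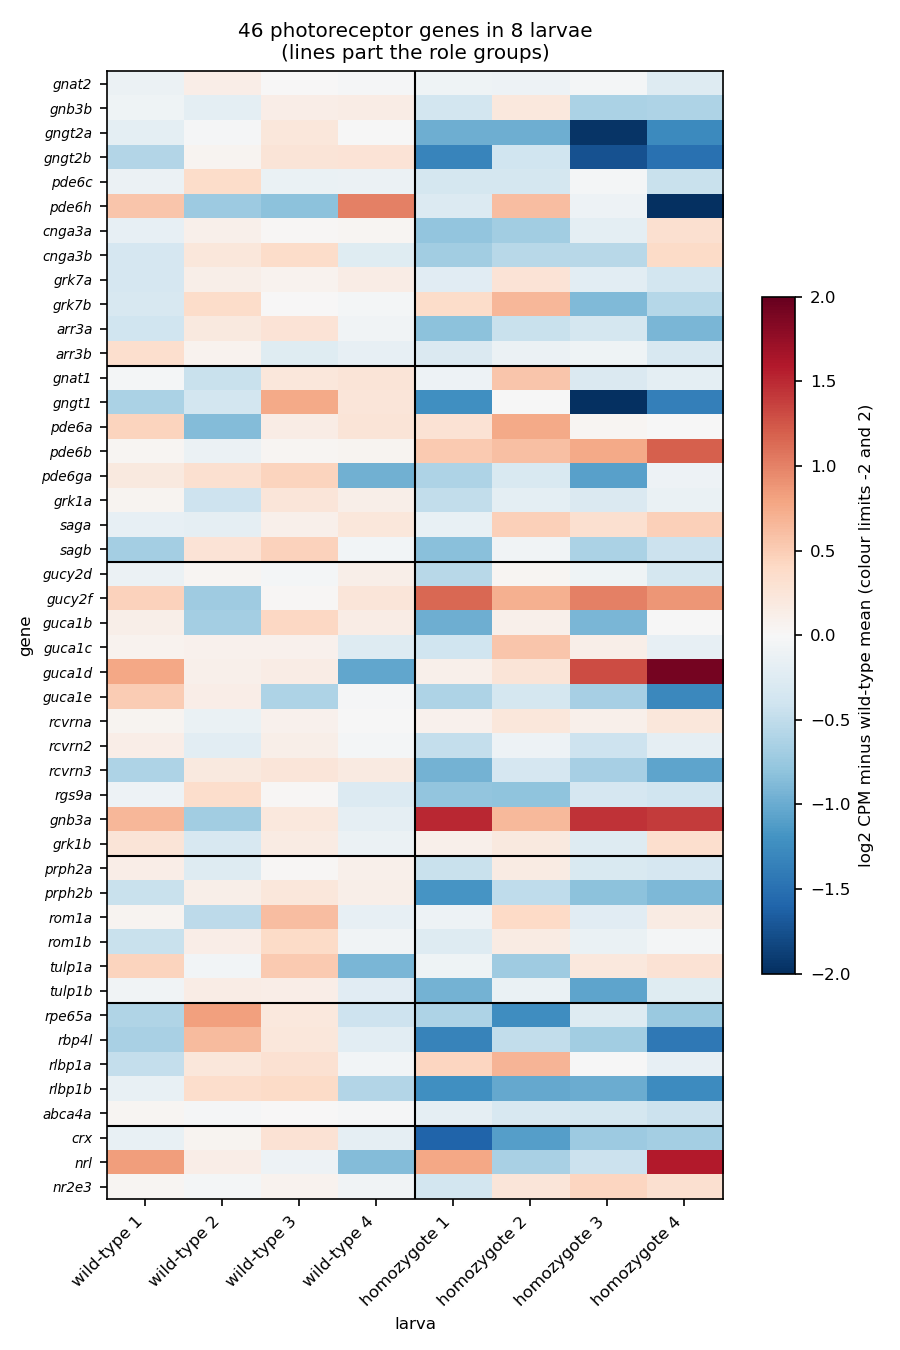
Log2 CPM of the 46 genes (rows, by role) in each of the 8 larvae (columns) minus the mean of the wild-type larvae, red higher and blue lower, with colours limited at -2 and 2 (2 values lie beyond). The gngt2a, rlbp1b and crx rows are blue in all 4 homozygotes, the pde6b and gucy2f rows are red in all 4, and homozygote 2 is paler than the other homozygotes in gngt2b, gngt1 and gnb3a.

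A difference between groups in the ratio of 2 genes inside a library depends on neither library scaling nor gene length, so 18 pairs of paralogs or of rod and cone counterparts were compared (log2 ratio, prior count 2, exact two-sided permutation test). By this test 0 of 18 pairs passed after adjustment, the lowest adjusted p being 0.103. With 4 against 4 larvae the smallest p is 0.0286, and 5 of the 18 pairs reached it because their groups did not overlap. Among single rows, 4.95% had no overlap with homozygotes lower and 5.5% with homozygotes higher. The share over other gene pairs was not computed. saga is in both saga/sagb and saga/arr3a, so the 5 are not independent. At least 11 of the 18 pairs would have had to reach it for any to pass, so the absence of calls says little.

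The ratio of rlbp1a to rlbp1b was higher in homozygotes by 1.36 (log2; -0.67 ± 0.37 against -2.03 ± 0.38, SD, n = 4 each, exact permutation p = 0.0286, adjusted 0.103). The ratio of gucy2d to gucy2f was lower by 1.18 (log2 ratios 3.39 ± 0.43 against 4.58 ± 0.56) and that of saga to sagb higher by 0.78 (-1.77 ± 0.19 against -2.55 ± 0.48), with the same p. Among rod and cone counterparts, the ratio of pde6b to pde6c was higher in homozygotes by 1.07 (-4.30 ± 0.40 against -5.36 ± 0.33) and that of saga to arr3a by 0.92 (-3.59 ± 0.34 against -4.50 ± 0.33), again with the same p. The other rod and cone pairs did not follow. gnat1 to gnat2 differed by 0.12 (exact permutation p = 0.686), gngt1 to gngt2a by 0.13 (p = 0.743) and grk1a to grk7a by -0.14 (p = 0.629). pde6ga to pde6h differed by 0.003, but the pde6h row is uncertain because it shares reads with pde6ha. The cone gamma subunit paralogs kept nearly the same ratio, gngt2a to gngt2b differing by -0.06 against an SD of 0.28 in wild-type larvae and 0.43 in homozygotes.

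**Figure D5:**
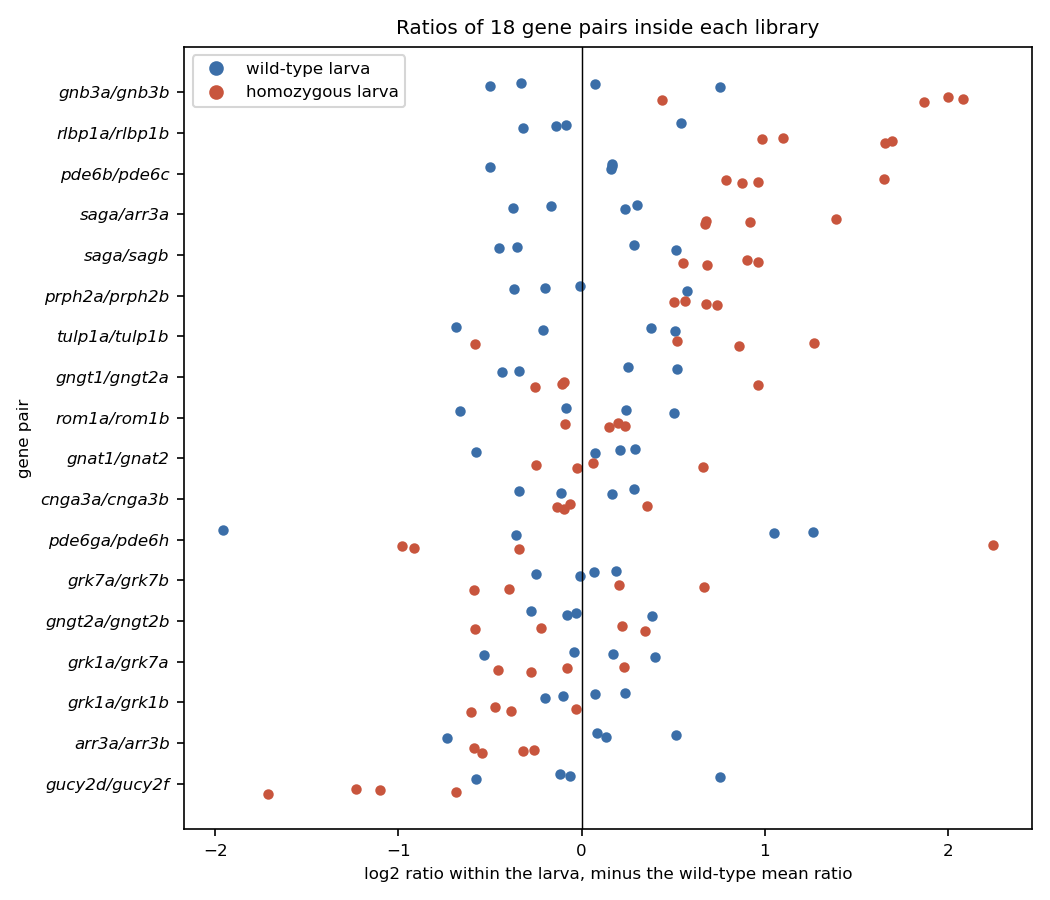
Log2 ratio of the levels of 2 genes inside each library, minus the mean ratio of the wild-type larvae (horizontal axis), for 18 gene pairs (rows); each point is 1 larva, and points of a group are offset vertically so that they can be seen. The groups do not overlap for rlbp1a/rlbp1b, pde6b/pde6c, saga/arr3a, saga/sagb and gucy2d/gucy2f, and overlap for the other 13 pairs.

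Other genes of the eye were counted from lists of the same kind. Of 41 further photoreceptor genes tested, 0 were called, and the median log2 fold change was -0.16 (0.22 with library totals alone). At an unadjusted p under 0.05, 7 of the 41 were lower and 2 of the 41 higher, where the shares of all rows were 12.4% and 9.84%. Of 8 opsin genes tested, 1 fell, the green cone opsin gene opn1mw2, and all 8 lay below 0 (7 with library totals alone). Of all rows 0.769% were called lower and 48.2% lay below 0. By unadjusted p under 0.05, 5 of the 8 opsin genes were lower and 0 higher. Among 9 pineal genes 1 fell, otx5, an orthodenticle-type homeobox gene related to crx and also expressed in the retina. otx5 was at 36.3, 62.5, 49.9 and 38.8 CPM in wild-type larvae and 18.7, 26, 29.2 and 25.8 CPM in homozygotes, without overlap (log2 fold change -0.91, SE 0.20, adjusted p = 0.047 by edgeR). That value is close to the threshold. No fit with a larva left out is given here for otx5 or opn1mw2, so these 2 calls are not shown to be firmer than those above. aanat2, the melatonin enzyme gene of the pineal, stood at -1.18 (SE 0.40, edgeR adjusted p = 0.123), and the pineal opsin gene exorh at -0.13 (SE 0.51). The summed pineal list was 53.5 to 82.6 CPM in wild-type larvae and 40.8 to 45.6 CPM in homozygotes. Most of that sum was otx5: without it the other 8 genes summed to 17.2 to 28.2 CPM and 16.5 to 22.1 CPM, and the groups overlapped.

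Lists for neurons of the inner retina gave 0 calls. The 11 bipolar genes had a median log2 fold change of 0.32 and the 13 amacrine and horizontal cell genes of 0.52, while the 10 ganglion cell genes stood at 0.06 (0.71, 0.91 and 0.46 with library totals alone). Many genes of these lists are also expressed in the brain. The amacrine and horizontal list summed to 222 to 285 CPM in wild-type larvae and 275 to 413 CPM in homozygotes. At an unadjusted p under 0.05, 4 of these 13 genes were higher and 0 lower, where the shares of all rows were 9.84% and 12.4%. Homozygotes lay above without overlap in 3 of the 13 (23.1%, against 5.5% of all rows). In the bipolar list 1 of 11 was higher and 0 lower by unadjusted p, and in the ganglion cell list 1 of 10 was in each direction. In these whole larvae the 11 photoreceptor synapse genes had a median of -0.03 and the 9 Müller glia genes of -0.24. Neither list held a called gene, and the medians were 0.36 and 0.20 with library totals alone. Lens genes had 0 of 15 called, a median of -0.59 (-0.19 with library totals alone) and summed levels of 2672 to 7978 and 1642 to 6787 CPM. Of the 15, 13 lay below 0. By unadjusted p under 0.05, 5 of the 15 were lower and 0 higher, and the groups overlapped in all 15. A lower level was thus not particular to the 46 genes. Of the genes found in these lists 1, cplx4b of the synapse list, was at 0 in all larvae.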

How the data were processed

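The authors deposited estimated counts per gene for 8 larvae in a single table. Trimmomatic, STAR 2.7, RSEM and the build danRer11 are named in the submitters' processing notes; settings, annotation and strand are not given in the sources used here. Per the labels' protocols, libraries were made from ribosomal RNA-depleted total RNA with random priming. RSEM divides reads among similar genes, so near-identical paralogs are uncertain, as are overlapping and antisense genes. Expected counts were rounded, filtered (filterByExpr, minimum count 10), scaled with TMM factors and fitted on 21447 rows with genotype alone in R 4.3.3, using the robust quasi-likelihood option of edgeR 4.0.16. A standard error is the log2 fold change divided by the root of F.

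The genes, lists, pairs and alternatives were chosen with earlier results of these data known. Values in every larva are given for genes called and, per role group, for the gene with the smallest p and the gene with the most counts; in the pair comparison, all pairs tied at the smallest p are named. Several genes, among them gucy2f, otx5, aanat2 and exorh, were named after their values were seen. Promoter motifs, planned at first, were not analysed here. Alternatives used DESeq2 1.42.0, limma 3.58.1 and sva 3.50.0. The steps were run on simulated counts, drawn independently for each gene and library from the fitted spread. That run cannot speak to the dependence on single larvae seen here. Libraries of a group differed by more than sampling noise (chi-square divided by its degrees of freedom, 20.2 to 77.7). The larvae are separate animals; the labels give no clutch or day, so the p-values speak only of the variation among them.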

Additional observations from a re-analysis of the deposited data

Results flagged for a closer look

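Among the 92 groups of 4 larvae examined (46 genes, 2 genotypes), 6 held a larva far from the other 3; chance alone gives about 1 in 20. pde6c was at 274 CPM in wild-type 2 against 193 to 195 CPM in the other wild-type larvae, and pde6b at 4.6 CPM in wild-type 2 against 5.16 to 5.2 CPM. rcvrn3 was at 143 CPM in wild-type 1 against 246 to 258 CPM, and guca1c at 9.46 CPM in wild-type 4 against 11.9 to 12 CPM. Among homozygotes, gnat1 was at 65 CPM in homozygote 2 against 36.2 to 41 CPM, and cnga3b at 7.15 CPM in homozygote 4 against 3.34 to 3.68 CPM.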

How the results depend on the processing

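The direction of gngt2a, prph2b, rlbp1b and crx was kept under all alternatives. With each larva left out in turn, between 0 and 9 genes of the set were called lower, between 0 and 3 higher, and between 38 and 2130 of all rows were called. With library totals alone the counts were 0 lower and 123 of all rows, and the median log2 fold change of the set was 0.11. With no filter 1 was called higher and 349 of all rows were called. DESeq2 called 8 lower, 3 higher and 1693 of all rows; limma voom called 2 lower and 136 of all rows. With 1 surrogate variable, which overlaps with genotype, 1 was called lower, and 197 of all rows were called. Without wild-type 1 and homozygote 2 the counts were 11, 3 and 3952. Fewer larvae enter the fits that leave some out, and the number of rows called fell in some of these and rose in others. The causes were not tested. The 18 pair ratios also gave 0 calls under 2 other prior counts and with each larva left out, but with so few larvae a call after adjustment was nearly out of reach, so this does not show stability.

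Replicate numbers are shared by the groups, but same-numbered larvae did not deviate together (correlations -0.0791, 0.0519, -0.0769 and -0.107), so they were not treated as pairs. With the replicate block 5 genes were called lower and 1 higher, and 333 of all rows, the additions being rbp4l (edgeR adjusted p = 0.0224) and gnb3a (0.0367); grk7b then stood at -0.10 and gnat1 at -0.02.

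Other changes of sign were in genes that were not called. With library totals alone the log2 fold change was 0.27 for gnat2, 0.03 for gnb3b, 0.10 for pde6c, 0.13 for cnga3a, 0.09 for cnga3b, 0.25 for grk7a, 0.14 for arr3b, 0.07 for grk1a, 0.15 for gucy2d, 0.06 for rcvrn2, 0.12 for prph2a, 0.31 for rom1b, 0.27 for tulp1a and 0.06 for abca4a. With limma voom it was -0.15 for grk7b and -0.01 for gnat1. With 1 surrogate variable it was 0.11 for grk7a, 0.00 for grk1b, 0.10 for rom1b and -0.18 for nrl. Without wild-type 1 and homozygote 2 it was -0.38 for grk7b, -0.22 for gnat1, -0.09 for guca1c, -0.09 for rom1a, 0.22 for tulp1a and -0.03 for rlbp1a. With each larva left out it ranged from -0.30 to 0.26 for grk7b, -0.22 to 0.11 for gnat1, -0.15 to 0.20 for guca1c, -0.14 to 0.26 for rom1a, -0.20 to 0.05 for rom1b, -0.36 to 0.05 for tulp1a, 0.00 to 0.21 for grk1b and -0.07 to 0.90 for nrl. Genes under about 3 CPM, such as nr2e3, guca1d and guca1e, rest on few counts.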
